A study of Mus musculus with 2 samples.

Results

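Chromatin remodelers use the energy of ATP to slide, eject or exchange nucleosomes, and their subunits were read out here in the forebrain of newborn mice. The genes described are 40 of the 55536 genes listed, and of the 22028 protein-coding genes, taken by symbol alone: every Smarc gene, Arid1 to Arid5, the numbered Chd genes, Actl6a, Actl6b, Dpf1, Dpf2, Dpf3, Phf10, Ss18 and Ss18l1. Polyadenylated RNA was sequenced from whole forebrains of 2 untreated pups of strain B6NCrl at an age of 0 days, pup 1 (replicate 1) and pup 3 (replicate 2), with 10 ng of RNA per library. Both pups carry the same donor identifier and sex was not collected. The pups form 1 group, so levels and ratios are given as a value per pup or as a mean with its SD (n = 2). No p-value is given, since with 2 pups the smallest that an exact sign-flip test allows is 0.5.

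The BAF complex, the mammalian SWI/SNF remodeler, is built around the ATPase Smarca4 (BRG1) or Smarca2 (BRM), and most of its other positions can be filled by one of several paralogs. When neural progenitors leave the cell cycle, 3 positions are known to exchange subunits: Actl6a (BAF53A) for Actl6b (BAF53B), Phf10 and Dpf2 (BAF45A and BAF45D) for Dpf1 and Dpf3 (BAF45B and BAF45C), and Ss18 for Ss18l1 (CREST). PBAF is a sister complex with its own ARID subunit. The ISWI ATPases space nucleosomes, and the CHD proteins join chromodomains to the same kind of motor, some of them as the ATPase of the NuRD deacetylase complex.

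Expected counts summed to 40964891 in pup 1 and to 41230878 in pup 3, and the remodeler genes took 0.328% and 0.295% of them. One read on a transcript of 1000 bases was worth 0.0383 TPM in pup 1 and 0.0340 TPM in pup 3, where TPM is a level per length and per library. All 9 forebrain markers examined were detected, with a median of 33.7 TPM. The 12 neuron markers summed to 7099 and 5682 TPM and the 12 progenitor markers to 2734 and 2790 TPM. Most of the progenitor sum came from Fabp7, at 2151 and 2326 TPM. The median of the mean levels was 168 TPM for neuron markers and 14.5 TPM for progenitor markers. In log2 of (TPM + 1) in pup 3 over pup 1, Fabp7 was at 0.11 and the median of the progenitor list at -0.32. The 12 markers of glia, vessels and blood were also detected, with sums of 1329 and 1799 TPM. Most of these sums came from the globins, Hbb-bs at 626 and 954 TPM and Hba-a1 at 405 and 575 TPM. The median of this list was 24.7 and 16.0 TPM. In whole tissue, fewer cells of a type and less RNA per cell cannot be told apart.

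A level of 1 TPM or more in both pups was reached by 38 of the 40 genes, and by 59.5% of all protein-coding genes. The exceptions were Arid3a, at 1.77 and 0.83 TPM, and Arid3c, at 0.12 and 0.11 TPM on 5 and 4 counts. The median level of the remodeler genes was 29.5 and 21.1 TPM in pups 1 and 3. Over the 13474 protein-coding genes with a mean of 1 TPM or more, the median was 16.3 TPM. The highest levels lay at neuronal or shared BAF positions, and the ARID subunits of the complexes stood far below them.

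**Figure D1:**
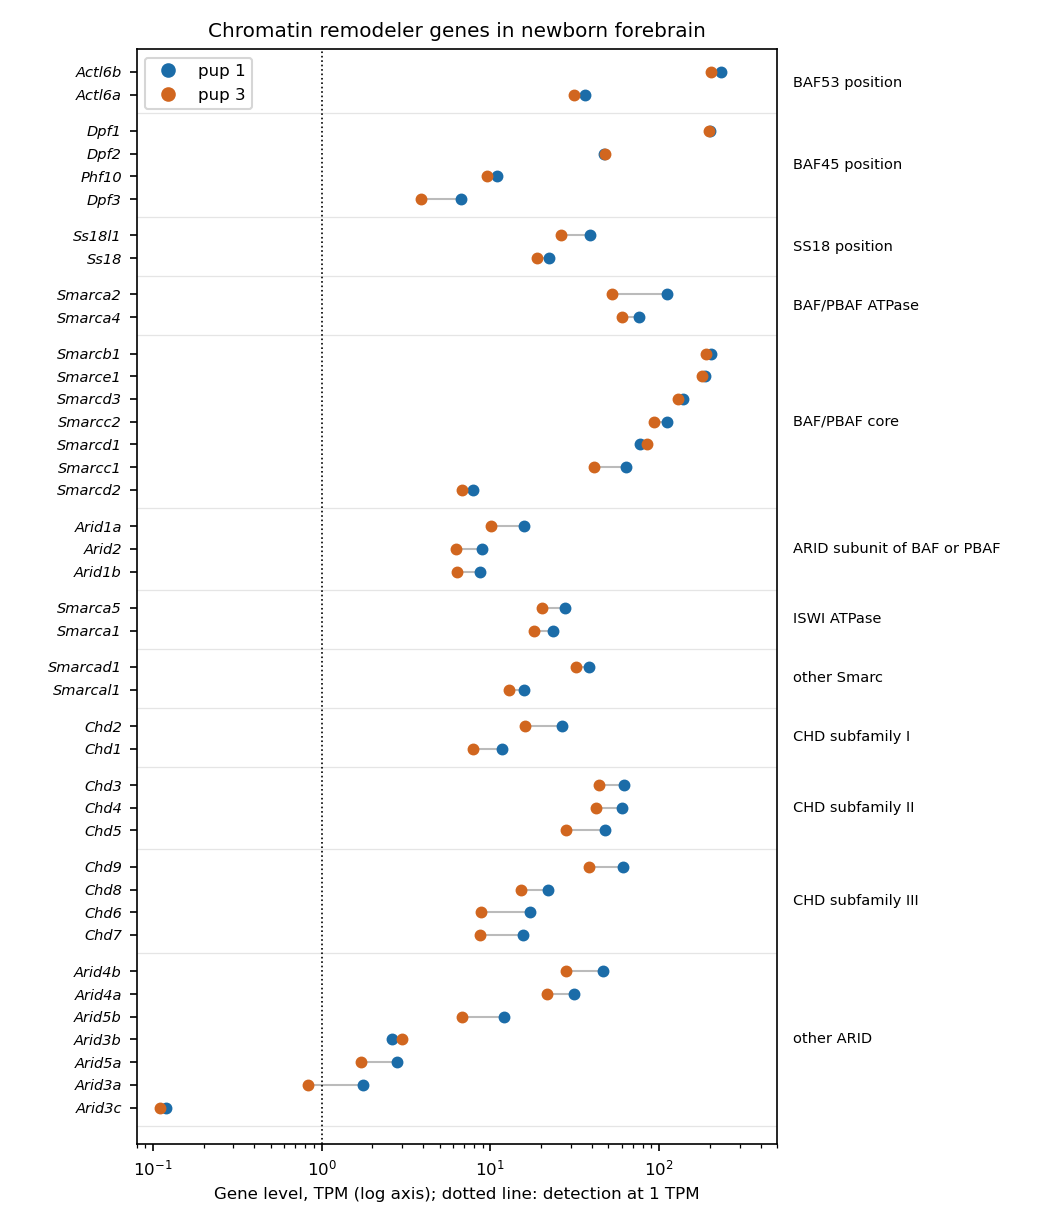
Level of each remodeler gene in TPM (log axis) in pup 1 (blue) and pup 3 (orange), grouped by role, with the detection level of 1 TPM dotted. Actl6b and Dpf1 stand above their paralogs in both pups, and Arid3c is the one gene under 1 TPM in both.

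At the exchanged positions, most of the message level belonged to the neuronal paralogs. Proteins and assembled complexes were not measured, so a share of a position is here a share of messages. Actl6b, the actin-related subunit of postmitotic neurons, was the highest of all 40 genes over all transcripts, with 232 TPM (pup 1) and 204 TPM (pup 3). Its progenitor counterpart Actl6a had 36.6 and 31.5 TPM. Actl6b therefore held 86.4% and 86.6% of the summed level of its position, with no overlap between the genes' ranges. On long coding transcripts, protein-coding ones with at least 50% of the gene's longest coding sequence, Actl6b had 196 and 174 TPM and came second to Smarcb1, at 201 and 190 TPM. The log2 ratio of Actl6a over Actl6b, taken with 0.1 TPM added, was -2.68 ± 0.02, or 6.39-fold in favour of Actl6b. The summed level of the position was 252 ± 23.9 TPM.

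Actl6a lies at chr3:32706298-32726973 and Actl6b at chr5:137553517-137569582, both on the plus strand of mm10. Their coding sequences, of 1287 bases in Actl6a-201 and 1278 bases in Actl6b-205, are 75.9% identical over 1278 aligned bases, with a longest shared run of 23 bases. The stretches below show how far apart the messages are for a short read. The first pair is the 90-base window with the fewest differences, 14, at coding bases 550 to 639 of Actl6a and 541 to 630 of Actl6b, counted from the start codon. The second pair is the window with the most, 28, at 682 to 771 and 673 to 762. Capitals mark the bases that differ.
Actl6a, least different: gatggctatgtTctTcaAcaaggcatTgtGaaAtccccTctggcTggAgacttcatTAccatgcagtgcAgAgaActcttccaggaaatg
Actl6b, least different: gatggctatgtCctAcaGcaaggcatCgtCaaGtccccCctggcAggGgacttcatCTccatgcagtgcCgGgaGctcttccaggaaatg
Actl6a, most different: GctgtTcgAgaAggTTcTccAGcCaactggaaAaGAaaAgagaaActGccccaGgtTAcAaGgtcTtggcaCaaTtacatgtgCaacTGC
Actl6b, most different: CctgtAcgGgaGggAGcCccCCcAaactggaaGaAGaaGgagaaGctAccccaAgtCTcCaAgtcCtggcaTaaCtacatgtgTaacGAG

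Among the other 15 pairs of paralogs aligned in the same way, identity was lowest between Dpf1 and Phf10, at 58.5%, and the longest shared run was 35 bases, between Chd3 and Chd4. Actl6a shares its locus with Mrpl47 on the opposite strand, which was at 26.2 TPM. The strand setting of the libraries is not given in the sources used here, so reads of Actl6a and Mrpl47 in the shared stretch cannot be told apart.

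Actl6a is known as a target of miR-9-3p (also called miR-9*), a microRNA of the nervous system. The mature microRNA is shown from RefSeq (GRCm38.p6, the assembly of mm10) with its seed, bases 2 to 8, in capitals, beside the seed match found after the stop codon of Actl6a-201 at chr3:32726625-32726654 on the plus strand.
miR-9-3p: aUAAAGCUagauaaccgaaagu
Actl6a site: cacctcaacgtctgtAGCTTTAgtacactc
The letters AGCTTTA, searched on the transcript strand, start at base 41 of the 374 bases that follow the annotated coding sequence of Actl6a-201. They occur nowhere in the 199 bases that follow that of Actl6b-205. The same letters were found in 5 of the 40 remodeler genes, which besides Actl6a are Arid2, Smarca2, Smarcd2 and Smarce1. They were found in 10.5% of 12844 protein-coding genes, whose stretches after the coding sequence have a median of 908.5 bases. These genes had a mean of 1 TPM or more and at least 30 such bases. They were searched on the leading protein-coding transcript of any coding length. The remodeler genes were searched on the leading long coding one, whatever their level, so the figures are not strictly alike. A match is a description of the sequence and not evidence of binding.

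At the BAF45 position, which reads histone tails through paired PHD fingers, the neuronal Dpf1 led with 201 and 197 TPM. Dpf2, which is present in most cell types and was counted on the progenitor side, followed at 46.9 and 47.8 TPM. The ratio of Dpf2 over Dpf1 was -2.07 ± 0.04 in log2, a 4.20-fold difference. Between the pups, Dpf1 was about level in TPM (log2 of pup 3 over pup 1, -0.02) but higher in pup 3 by 0.42 in counts scaled by TMM, and Dpf2 was at 0.03 and 0.23 on these scales.

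Phf10, the subunit of dividing progenitors and also a PBAF subunit, was at 10.9 and 9.53 TPM. Dpf3, the other neuronal member, was at 6.69 and 3.86 TPM, on 227 and 152 counts. Dpf3 thus stood below both progenitor-side genes, so most of the neuronal message at this position was that of Dpf1. In log2, Phf10 over Dpf1 was -4.27 ± 0.12, Phf10 over Dpf3 was 0.99 ± 0.41 and Dpf2 over Dpf3 was 3.19 ± 0.57. Over long coding transcripts Phf10 had 4.85 and 4.46 TPM and Dpf3 4.18 and 2.62 TPM. Phf10 over Dpf3 was then 0.48 ± 0.38, and 1.57 with a minimum of 80% of the longest coding sequence. Of the summed 262 ± 4.62 TPM, Dpf1 held 75.7% and 76.3%, Dpf2 17.7% and 18.5%, Phf10 4.11% and 3.69%, and Dpf3 2.52% and 1.49%. Phf10 overlaps 1600012H06Rik (22.8 TPM), and Dpf2 overlaps Gm42067 (12.3 TPM), each on the opposite strand.

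The SS18 position was the most evenly shared of the exchanged positions. Ss18l1, the calcium-responsive coactivator needed for activity-dependent dendrite growth, was at 38.9 and 26.1 TPM. Its progenitor paralog Ss18 was at 22.3 and 19.0 TPM. Ss18l1 held 63.5% and 57.8% of the position, and the ratio of Ss18 over Ss18l1 was -0.62 ± 0.24 in log2. Over long coding transcripts the ratio was -1.07 ± 0.30. The position's sum was 53.2 ± 11.4 TPM, below those of BAF53 and BAF45.

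Of the 6 progenitor-neuronal pairs, the neuronal gene was higher in 4, and the ranges of the pups did not overlap in any of the 6. The pairs rest on 8 genes, since Phf10 and Dpf2 were each set against both Dpf1 and Dpf3. They are therefore not separate comparisons. The exceptions in direction were the pairs with Dpf3.

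**Figure D2:**
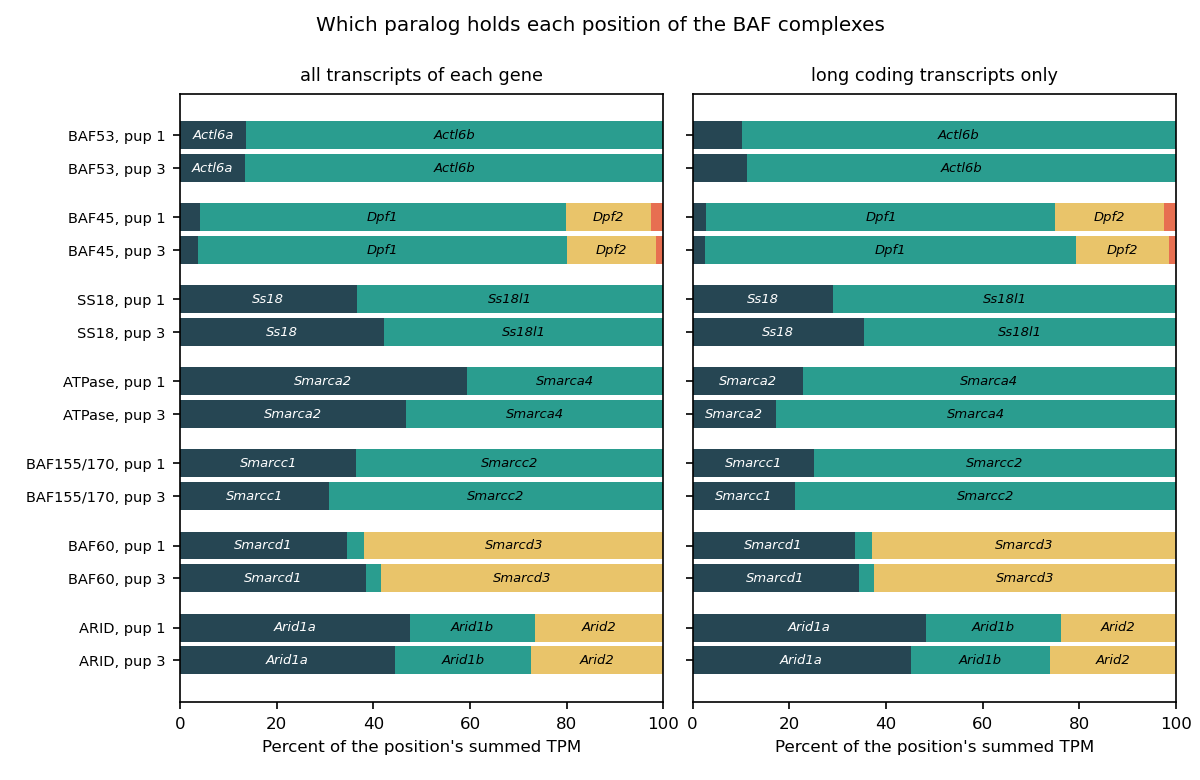
Percent of each position's summed TPM held by each paralog in each pup, over all transcripts (left) and over long coding transcripts (right). Narrow segments without a name are Phf10 (left end of BAF45), Dpf3 (right end of BAF45), Smarcd2 (middle of BAF60) and, on the right, Actl6a; the leading paralog differs between the panels only for the ATPases of pup 1.

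The ATPases gave the least settled comparison. Smarca2 was at 112 and 53.0 TPM, and Smarca4, the ATPase required in neural progenitors, was at 76.5 and 60.6 TPM. Smarca2 was higher in pup 1 and Smarca4 in pup 3, and the log2 ratio of Smarca4 over Smarca2 was -0.18 ± 0.52. Over long coding transcripts the order was the same in both pups: Smarca4 had 76.5 and 60.6 TPM and Smarca2 had 22.6 and 12.7 TPM. The log2 ratio on these transcripts was 2.00 ± 0.35, a 4.00-fold difference in favour of Smarca4. By expected counts, Smarca4 had 10952 and 9855 and Smarca2 had 6700 and 3980.

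Smarca2 lies at chr19:26605050-26778322 on the plus strand and has 46 annotated transcripts. The 3 long coding ones held 20.2% and 23.9% of its TPM, and 50.9% and 54.2% of its counts. Another 28 transcripts start at an inner start at position 26748402, at most 1500 bases before it, or beyond it, and held 68.6% and 62.3% of its TPM. Most of the gene's level per length was thus assigned to short messages from its 3′ part, while a majority of its reads was assigned to the long ones. Its leading transcript, Smarca2-246, has 1841 bases and a coding sequence of 828 bases, and was at 24.7 and 13.7 TPM. Of its coding bases, 93 lie outside the exons of the long coding transcripts. The first 60 of them, at chr19:26749855-26749914, are shown in capitals because they distinguish this message from the full-length ones.
Smarca2-246: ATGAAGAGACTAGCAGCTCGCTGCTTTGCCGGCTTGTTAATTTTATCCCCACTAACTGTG

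The core subunits common to the complexes were among the most abundant remodeler messages. Smarcb1 (BAF47), a tumour suppressor that contacts the nucleosome's acidic patch, was at 203 and 190 TPM. Smarce1 (BAF57), an HMG-box protein, was at 188 and 180 TPM. Their log2 differences between the pups were -0.10 and -0.06 in TPM, and 0.23 and 0.30 in counts scaled by TMM, so their direction depended on the scale. Smarcb1 was carried almost wholly by long coding transcripts, which made up 99.2% of its level, while the share for Smarce1 was 60.9%.

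For the scaffold pair, Smarcc2 (BAF170) was at 111 and 93.1 TPM and Smarcc1 (BAF155) at 63.7 and 41.3 TPM. The log2 ratio of Smarcc1 over Smarcc2 was -0.98 ± 0.26, and Smarcc2 held 63.5% and 69.2% of the position. Long coding transcripts widened the ratio to -1.74 ± 0.23, since the leading transcript of Smarcc1, Smarcc1-208, is annotated as a retained intron. Smarcc1 overlaps Dhx30, at 87.5 TPM, on the opposite strand.

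The BAF60 position was led by Smarcd3, the paralog known from heart and muscle as well as neurons, at 139 and 129 TPM. Smarcd1 followed at 77.4 and 84.8 TPM, and Smarcd2, known from blood cells, at 7.89 and 6.78 TPM. Smarcd1 over Smarcd3 was -0.72 ± 0.17 in log2 and Smarcd1 over Smarcd2 was 3.45 ± 0.25. The order of Smarcd1 and Smarcd3 holds per length: their expected counts were about equal, at 5356 and 5998 for Smarcd1 and 5408 and 5770 for Smarcd3. Smarcd3 overlaps Chpf2 (16.2 TPM) on the opposite strand.

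The large ARID subunits, which bind DNA and define the subtype of complex, were the lowest BAF position, with a sum of 28.0 ± 7.67 TPM. Arid1a, a BAF subunit often lost in tumours, was at 15.9 and 10.1 TPM. Arid1b, its paralog and a cause of Coffin-Siris syndrome, was at 8.66 and 6.34 TPM. Arid2, the PBAF subunit, was at 8.88 and 6.22 TPM. Arid1a was higher than Arid1b by 0.76 ± 0.15 and than Arid2 by 0.76 ± 0.11 in log2, with no overlap, whereas the ranges of Arid1b and Arid2 overlapped. Long coding transcripts held 95.8% of the level of Arid1a, 99.7% of that of Arid1b and 86.8% of that of Arid2. With the minimum raised from 50% to 80% of the longest coding sequence, Arid1b had 1.28 TPM and the log2 ratio of Arid1a over Arid1b was 3.20.

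The 9 accessory BAF genes examined were all detected, with a median of 37.1 TPM. Actb, which doubles as the cytoskeletal actin, was at 16483 ± 701 TPM and Bcl11a, a zinc finger protein of cortical neurons, at 141 ± 2.84 TPM. Brd9 was at 58.0 ± 5.52 TPM and Bcl11b at 47.0 ± 15.4 TPM. On long coding transcripts Bcl11a had 49.2 TPM and Bcl11b 47.0 TPM. Of the PBAF subunits, Pbrm1 was at 54.0 ± 21.6 TPM and Brd7 at 41.4 ± 2.72 TPM. Both of these were above Arid2 and Phf10.

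The ISWI ATPases were close to each other. Smarca5 (SNF2H) was at 27.5 and 20.3 TPM and Smarca1 (SNF2L), known as the neuronal paralog, at 23.6 and 18.1 TPM. Their ranges overlapped across the pups, and over all transcripts Smarca5 was higher within each pup. The log2 ratio of Smarca5 over Smarca1 was 0.19 ± 0.04 over all transcripts and -1.02 ± 0.19 over long coding transcripts, a reversal of direction. The leading transcript of Smarca5, Smarca5-202, is a retained intron with 54.7% of its level, and that of Smarca1 is long and coding. Of 9 ISWI partner genes, 8 were detected, with a median of 11.5 TPM. The highest were Chrac1 (53.8 TPM), Pole3 (49.0 TPM), Baz2b (25.6 TPM) and Rsf1 (14.6 TPM), and Cecr2 was at 0.84 TPM.

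Outside these complexes, Smarcad1, which helps keep heterochromatin silent through replication, was at 38.3 and 32.0 TPM. Smarcal1, which reanneals DNA at stalled forks, was at 15.7 and 12.9 TPM. Of 12 further SNF2-family genes 10 were detected, with a median of 2.77 TPM. Atrx was the highest at 143 ± 56.5 TPM, followed by Ercc6 (16.1 and 9.98 TPM), Shprh (8.17 TPM) and Hltf (6.81 TPM), and Ercc6l was at 0.47 TPM. Ttf2, the other gene not detected, was at 1.69 and 0.90 TPM. Atrx had 13.8 TPM on long coding transcripts.

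The CHD ATPases of NuRD, a complex that couples remodeling to histone deacetylation, had similar levels. Chd3 was at 61.7 and 43.9 TPM, Chd4 at 59.96 and 42.34 TPM and Chd5, the neuronal paralog, at 47.8 and 28.0 TPM. The ranges of all 3 overlapped across the pups, but within each pup Chd3 was the highest and Chd5 the lowest. Chd4 over Chd3 was -0.05 ± 0.01 in log2. Over long coding transcripts Chd3 and Chd4 were still close, at 21.9 and 21.1 TPM, but Chd5 had 5.01 and 3.18 TPM. On that measure Chd4 over Chd5 was 2.35 ± 0.06 in log2, against 0.46 ± 0.19 over all transcripts.

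Most of the level listed for Chd5 was assigned to 1 short message. Chd5-204 is annotated as a processed transcript of 280 bases, in 3 exons at chr4:152341595-152353626 on the plus strand, and held 79.5 ± 1.73% of the gene's TPM. Its expected counts were 182 and 117, of 2073 and 1503 for the whole gene. Few reads on a short transcript thus made up most of the gene's level per length. Of its 280 bases, 214 lie in coding exons of Chd5, which the long message shares, and are in capitals.
Chd5-204: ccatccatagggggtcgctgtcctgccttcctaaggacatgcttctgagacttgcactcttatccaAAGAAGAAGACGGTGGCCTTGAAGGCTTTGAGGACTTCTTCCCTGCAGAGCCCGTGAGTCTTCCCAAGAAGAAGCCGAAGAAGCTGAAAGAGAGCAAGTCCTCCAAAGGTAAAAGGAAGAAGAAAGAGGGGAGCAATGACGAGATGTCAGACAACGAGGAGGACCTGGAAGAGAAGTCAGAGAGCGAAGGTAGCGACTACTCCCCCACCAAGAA

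The 12 NuRD partner genes were all detected, with a median of 56.2 TPM. Hdac2 and Rbbp4 stood at 231 ± 7.73 and 229 ± 5.42 TPM, Rbbp7 at 194 ± 23.2 TPM and Mbd3 at 154 ± 11.1 TPM. Each of these 4 was above all 3 ATPases of the complex. On long coding transcripts Hdac2 had 230 TPM and Rbbp4 82.0 TPM. The 26 genes of the INO80, SRCAP and p400 complexes, which exchange histone variants, were likewise all detected, with a median of 35.2 TPM. The highest were Morf4l1 (517 TPM), Mcrs1 (203 TPM), Znhit1 (153 TPM) and Vps72 (144 TPM).

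Chd1, which acts at transcribed genes, was at 11.8 and 7.85 TPM. Chd2, whose loss causes an epileptic encephalopathy in people, was at 26.5 and 16.1 TPM. Long coding transcripts held 24.4% of the level of Chd1 and 14.7% of that of Chd2. Chd2 overlaps 1810026B05Rik, at 78.0 TPM, on the same strand.

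In the third CHD subfamily, Chd9 was listed at 60.8 and 38.5 TPM, Chd8 at 22.1 and 15.3 TPM, Chd6 at 17.1 and 8.75 TPM and Chd7 at 15.6 and 8.71 TPM. Chd8 is a gene strongly tied to autism and Chd7 is the gene of CHARGE syndrome. Over long coding transcripts the order was different, with Chd8 at 8.93 TPM, Chd6 at 3.48 TPM, Chd9 at 1.49 TPM and Chd7 at 1.15 TPM. Chd9 had the lowest share of the 40 genes on such transcripts, 3.00%, and its leading transcript, a processed transcript of 759 bases, held 67.8 ± 4.00%.

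The remaining ARID genes were not counted among the BAF or PBAF subunits. Arid4b and Arid4a, subunits of the Sin3 deacetylase complex, were at 46.5 and 28.2 TPM and at 31.5 and 21.8 TPM. Their ranges overlapped across the pups, and Arid4b was higher within each pup. Their long coding transcripts had 6.15 and 1.85 TPM, 16.5% and 6.92% of the genes' levels. Arid5b, partner of the histone demethylase Phf2, was at 11.98 and 6.83 TPM. Arid3b was at 2.60 and 2.99 TPM, and Arid5a, also an RNA-binding protein, at 2.78 and 1.72 TPM. Arid4b overlaps Ggps1 (58.5 TPM), and Arid3c overlaps Il11ra1 (24.4 TPM), each on the opposite strand.

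The remodeler genes as a set had much of their level on transcripts other than the long coding ones. Their median share on long coding transcripts was 60.9%, against 89.9% over protein-coding genes. The share was under 50% in 17 of the 39 genes with a mean of 1 TPM or more, and in 15.6% of protein-coding genes. In 10 of the 39 the leading transcript was not annotated as protein coding, a state found in 9.1% of protein-coding genes. It was shorter than 1000 bases in 4 (Chd4, Chd5, Chd9 and Smarcad1), which is no more than the 13.6% of protein-coding genes. The median level of the 40 genes on long coding transcripts was 9.30 TPM, and 11.6 TPM over protein-coding genes with a mean of 1 TPM or more.

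The share differed by role. All 9 Chd genes were under 50%, from Chd9 at 3.00% to Chd8 at 47.7%. Of the 20 BAF and PBAF genes, Smarca2 (21.4%) and Phf10 (45.5%) were under it, and Smarca4 and Ss18l1 were at 100%. The other 6 genes under it were Smarca5, Smarcad1, Arid4a, Arid4b, Arid5a and Arid5b. No test was made of this, and transcript levels are the authors' estimates from reads that several transcripts share.

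**Figure D3:**
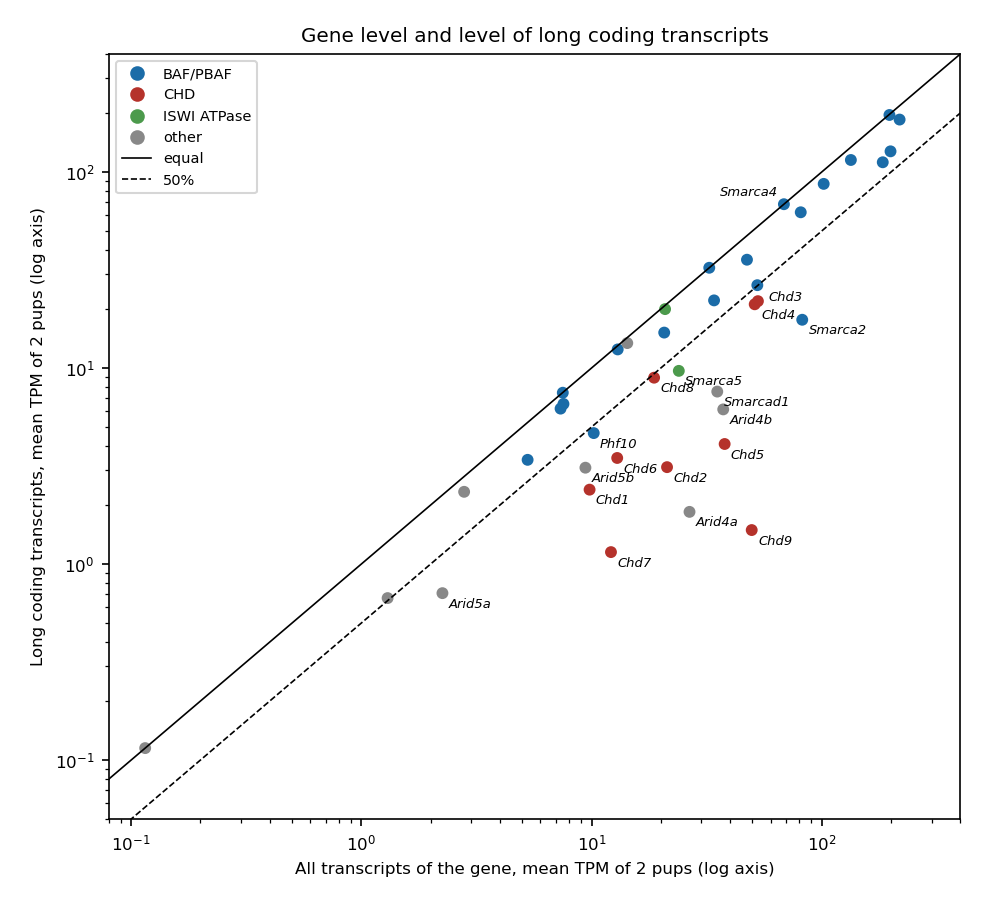
Mean TPM of each remodeler gene over all transcripts (horizontal, log axis) against its long coding transcripts (vertical, log axis), with lines at equality and at 50%. The CHD genes (red) all lie under the 50% line, and among BAF and PBAF genes (blue) Smarca2 and Phf10 do.

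Pup 3 was lower than pup 1 in most remodeler genes. On the scale of log2(TPM + 1), 36 of 39 genes were lower in pup 3, as were 81.9% of protein-coding genes, and the median was -0.45 against -0.25. With counts scaled by TMM the median was -0.10 against 0.04, and with DESeq2 size factors it was -0.11 against 0.03. The scaling therefore moved both medians by more than 0.1, and the remodeler median was below that of protein-coding genes on each of the 3 scales. Smarca2 was the only gene over 2-fold apart, at -1.06, where 1.66% of protein-coding genes passed that limit and 1.6% did so with pup 3 lower, and on its long coding transcripts the value was -0.79. No remodeler gene passed it with TMM or DESeq2 scaling, for which no share of protein-coding genes is given. In TPM, the genes higher in pup 3 were Arid3b (0.15), Smarcd1 (0.13) and Dpf2 (0.03).

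The difference went with transcript length. Across the 39 genes, the Spearman correlation of the difference with the length of the longest coding transcript was -0.73 and the Pearson correlation -0.69; across protein-coding genes the Spearman value was -0.51. These are descriptions across genes that share the same 2 libraries. The median length was 5361 bases for remodeler genes and 3157 for protein-coding genes. Among the 15 remodeler genes of 6000 bases or more the median was -0.53, with -0.49 for protein-coding genes of that class, and 10 of the 15 were below the class median. Among the 12 genes of 4000 to 6000 bases it was -0.50, with -0.36 for the class, and 8 were below. The 4 genes under 2000 bases had a median of -0.14, with -0.04 for the class, and all 4 were below. The 8 genes of 2000 to 4000 bases were the exception, at -0.13 with -0.23 for the class, and 2 were below. Marker lists differed between the pups too. The median was -0.55 for neuron markers, -0.32 for progenitor markers and 0.05 for markers of glia, vessels and blood. In that last list the globins Hbb-bs and Hba-a1 were at 0.61 and 0.51. Aif1, C1qb, Cldn5, Kcnj8 and Pecam1 lay from 0.04 to 0.18. Gfap, Aqp4, Pdgfra, Mbp and Olig2 lay from -0.76 to -0.37. The forebrain markers ranged from -1.11 to 0.68, with a median of -0.13. The part of these lists, or of length, in the difference was not tested.

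**Figure D4:**
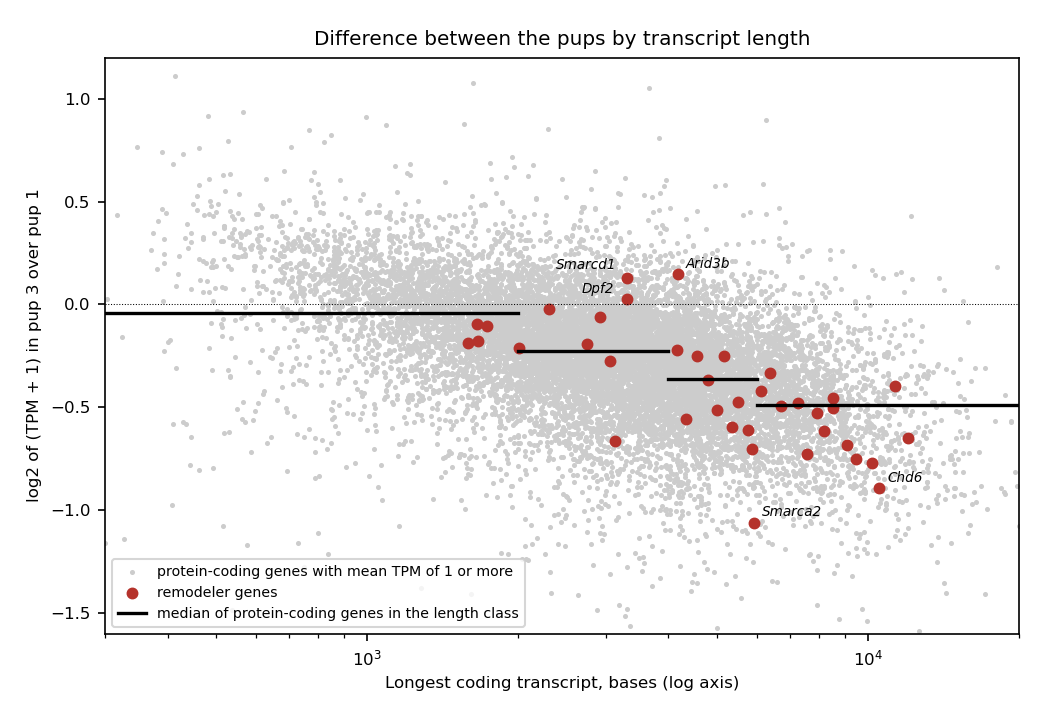
Difference between the pups, as log2 of (TPM + 1) in pup 3 over pup 1, against the longest coding transcript in bases (log axis) for remodeler genes (red) and other protein-coding genes (grey), with the median of protein-coding genes in 4 length classes as black bars. Class medians go from -0.04 under 2000 bases to -0.49 at 6000 bases or more; 16 genes lie outside the vertical and 22 outside the horizontal axis.

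Within a pup, ratios of paralogs need no scaling between the libraries. In the Actl6a and Actl6b pair the log2 ratio was -2.66 in pup 1 and -2.69 in pup 3, and in the Dpf2 and Dpf1 pair -2.09 and -2.04. The Ss18 pair was at -0.80 and -0.45. The first 2 ratios differed between the pups by less than the third, in which Ss18l1 was lower in pup 3 by 0.56 and Ss18 by 0.22.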

How the data were processed

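Gene and transcript tables for mm10, annotated with releases M21 (used here) and M4 (alternative), were deposited for each library. The authors' tables hold expected counts, in which reads mapping to several features are split. The deposited TPM was scaled over all listed features, and FPKM, per length and depth, was deposited beside it. The deposited transcript tables give, in percent, the part of a gene's TPM on each transcript. Column names are those of RSEM. The aligner, quantifier and their settings were not given in the sources used here. RNA was extracted with mirVana and oligo-dT primed, and libraries were made by Nextera tagmentation, per the labels.

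Members were matched by symbol in the reference annotation, and all 40 were found in both releases. They and the 10 gene lists and 18 gene pairs were chosen with earlier results of these data known. All members are named, and of each list of partner genes the 4 highest and any gene with a mean under 1 TPM (Ttf2 is named beside them). Marker lists are given by sums, medians or counts, and Fabp7 and the markers of glia, vessels and blood are also named. Ratios used TPM + 0.1 and differences between pups TPM + 1. Paralogous coding sequences were aligned globally. TMM factors came from edgeR 4.0.16 and size factors from DESeq2 1.42.0, after expected counts were rounded, with no test. The difference between pups on log2(TPM + 1) and its 2-fold limit were checked on simulated data, and the other calculations were not. No molecular identifiers were counted, and the worth of a read given with the levels bears on counting error only. Mature microRNA sequence is from RefSeq; the other sequences are from the reference genome and annotation.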

Additional observations from a re-analysis of the deposited data

How the results depend on the processing

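No paired analysis was possible because the 2 libraries form 1 group. Leaving out either pup gave -2.69 to -2.66 for log2 Actl6a over Actl6b, -2.09 to -2.04 for Dpf2 over Dpf1, -0.80 to -0.45 for Ss18 over Ss18l1, 21.1 to 29.5 TPM for the median level and 38 to 39 detected genes. Actl6a over Actl6b was -2.60 with posterior mean TPM, -2.41 with expected counts, -2.62 in release M4, -2.64 with a pseudocount of 1 and -3.06 on coding transcripts with at least 50% or 80% of the longest coding sequence, which were chosen after seeing the data. Dpf2 over Dpf1 was -1.55 with expected counts and -1.83 on both sets of transcripts, and Ss18 over Ss18l1 was -1.31, -1.07 and -1.31 in that order. Smarca4 over Smarca2 reversed to 1.01 with expected counts, 0.19 without pup 1 (-0.55 without pup 3), and 2.00 and 1.99 on the 50% and 80% transcripts. Smarcd1 over Smarcd3 reversed to 0.021 with expected counts, and Smarca5 over Smarca1 to -1.02 and -0.85 on the 2 sets of transcripts. The median level was 9.30 TPM on either set. The number of genes over 2-fold apart, 1, was 2 with a pseudocount of 0.1. It was 0 with TMM, DESeq2 size factors, release M4 and either set of transcripts. For these alternatives no share of protein-coding genes is given. The median difference was -0.10 with TMM and -0.11 with DESeq2 size factors. The causes of these reversals were not tested. Arid3c, on 5 and 4 counts, is limited by depth.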
